A study of Homo sapiens with 6 samples.

Results

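Kinesins are motor proteins that hydrolyse ATP to move along microtubules or to take them apart at their ends. Those that act in division push spindle poles apart, bind chromosome arms and kinetochores, and build the midzone at which the cell is cut, and their mRNAs are known to peak late in the cell cycle. Others carry vesicles, organelles and ciliary cargo. The kinesin genes were followed in 22Rv1-ABHD5 cells, the castration-resistant human prostate cancer line 22Rv1 with the lipolysis coactivator ABHD5 behind a doxycycline (Dox)-inducible promoter on a lentiviral vector.

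The members were every row of the gene count table whose symbol is KIF followed by a digit, together with KIFC1, KIFC2 and KIFC3, which gave 45 of 27470 genes. Of these, 42 encode motors. The other rows are KIF1BP, an older symbol of the kinesin-binding protein gene KIFBP, and the antisense RNAs KIF9-AS1 and KIF25-AS1. By their known roles, 14 motors were listed as mitotic, 15 as transport motors and 13 as others, with ciliary, microtubule-end or less settled functions. Cells were grown without Dox (3 libraries, labelled Control) or with Dox (3 libraries, labelled OE) for 48 h. Both conditions carry the vector, the cells were a drug-selected population, and the Dox dose of these libraries is not stated. Libraries of parent cells with Dox were not analysed here, so Dox and ABHD5 cannot be told apart. Nothing states that replicates came from separate cultures, so p-values measure the spread between these libraries, which may be technical.

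Libraries held 3394672 to 7271771 counts on genes. ABHD5 mRNA rose with Dox, with a log2 fold change of 0.91 (± 0.15 standard error, SE, edgeR quasi-likelihood adjusted p = 1.978e-04), and no library with Dox was as low as one without. Of the luminal keratins, KRT18 stood at 240 to 256 CPM (counts scaled to library size after TMM normalization) without Dox and at 153 to 178 with Dox, and KRT8 at 47.8 to 65.98 and 39.0 to 56.8. KRT18 was lower with Dox (-0.57 on the log2 scale, edgeR adjusted p = 0.00189), and KRT8 did not pass (-0.30, edgeR adjusted p = 0.2005). Of 9 markers of basal, stromal, endothelial, immune and neuroendocrine cells, 5 had no count in any library (KRT5, KRT14, PECAM1, CD3E and CHGA). The summed level of the 9 was 22.7 to 25.5 CPM without Dox and 41.8 to 46.9 with Dox, most of it from SYP. Both tested members of that list, SYP and COL1A1, were higher with Dox (0.79 and 1.22 on the log2 scale, edgeR adjusted p = 0.00147 and 0.0313). COL1A1 had 14, 5 and 12 counts without Dox and 24, 13 and 58 with Dox, and its groups overlapped in CPM. It passed a filter on low counts only through the libraries with Dox, where it was high, so its call is not read as support. The part of these markers in the results below was not tested.

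Of the 42 motor genes, 30 had enough counts to be tested: 12 mitotic, 11 transport and 7 others. With Dox, 10 of the 12 mitotic kinesins fell at an adjusted p under 0.05, by edgeR's quasi-likelihood test with adjustment over all genes tested. Of all 12233 genes tested, 25.5% passed in either direction, 13.7% as lower and 11.9% as higher. With scaling by library totals alone, 1136 genes were lower and 2179 higher, against 1674 and 1451 with TMM. The median log2 fold change of the mitotic kinesins was -0.70, against 0.016 over all genes tested. Among transport kinesins, 3 of 11 passed, which is near the share of all genes, and the median was 0.002. Among the other motors 3 of 7 passed, 1 lower and 2 higher, with a median of -0.13. A filter on low counts was applied first, so these counts speak only for motors with measurable mRNA.

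**Figure D1:**
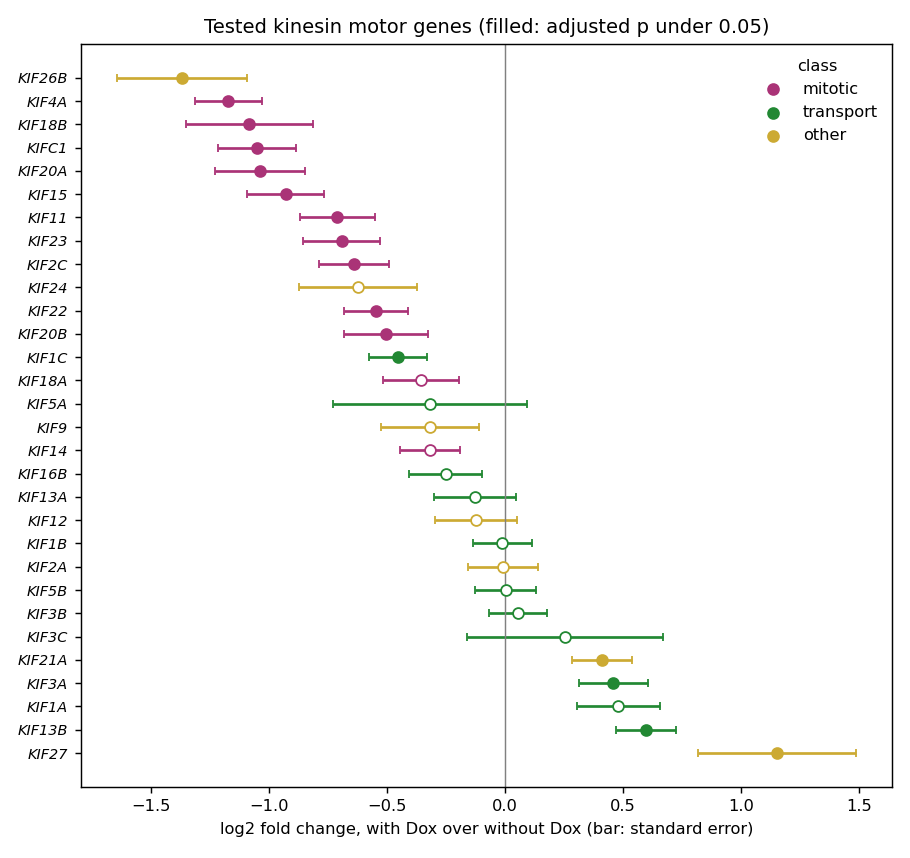
Log2 fold change with Dox over without Dox for the 30 tested kinesin motor genes, with the standard error as bars, coloured by class and filled where the adjusted p was under 0.05. The 12 mitotic kinesins lie between -1.17 and -0.32, and the 11 transport kinesins between -0.46 and 0.60.

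The summed level of the 14 mitotic motors was 943, 969 and 949 CPM in the libraries without Dox and 591, 606 and 516 CPM in those with Dox. The summed transport motors stood at 1661, 1784 and 1703 CPM without Dox and at 1742, 1941 and 1498 with Dox. Every library with Dox held less mitotic kinesin mRNA than any without, by a ratio of means of 0.599, while the transport sums overlapped, with a ratio of 1.01. In bulk RNA, fewer cells in division and less of these mRNAs per dividing cell cannot be told apart.

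The promoters of the mitotic kinesins were compared with those of the other motors. The cell cycle genes homology region (CHR) is a short element through which the DREAM and MuvB complexes are known to hold cell cycle genes low in G1 and raise them in G2 and mitosis, and the CCAAT box is bound by NF-Y. Promoters from RefSeq (GRCh38.p14), from 250 bases before the annotated start through the first 50 bases of the transcript, were found for 14 of 14 mitotic, 11 of 15 transport and 9 of 13 other motors. They were searched on both strands for TTTGAA (CHR) and CCAAT. The CHR letters were in 10 of 14 mitotic promoters, in 1 of 11 transport promoters (KIF5B) and in 0 of 9 others. They were in 15.4% of all 27305 promoters of the table and in 9.40% of those of tested genes. The CCAAT letters were in 11 of 14 mitotic, 3 of 11 transport and 3 of 9 other promoters, against 35.7% of all promoters. Both elements together were in 9 of 14 mitotic, 1 of 11 transport and 0 of 9 other promoters. The transport promoter with both was that of KIF5B, which was not called. Of all promoters 6.08% held both, and of those of tested genes 4.08%. These shares are a description without a test.

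Of the mitotic promoters, those of KIF4A, KIF11, KIF18B, KIF23 and KIFC1 are printed here as holders of both elements. These genes were all called lower and kept their calls in every alternative setting. KIF14, KIF18A, KIF20B and KIF4B also held both elements and are not shown. Of these, KIF14 and KIF18A were not called, KIF20B lost its call in 9 of 14 alternative settings, and KIF4B was below the filter. Whether the elements go with the fall was not tested. The promoter of KIF22 held a CCAAT box and, 34 bases after it, a CHR variant (TTCGAA, searched after the first results were seen and present in 1.45% of all promoters). Among the other motors the variant was in 1 of 9 promoters, that of KIF24, which also held CCAAT boxes. KIF20A held CCAAT boxes and no CHR, and KIF15, which is not shown, a CHR and no CCAAT box. KIF3A, a transport motor with neither that was called higher, is shown for contrast. KIF1C, a transport motor that was called lower, also held neither and is not shown. Each sequence runs 5′ to 3′ from 120 bases before the start through the first 40 bases of the transcript, with CHR letters, the variant and CCAAT boxes in capitals, read on either strand (TTCAAA and ATTGG are the reverse of TTTGAA and CCAAT).
KIF4A (chrX:70289984-70290143, plus strand): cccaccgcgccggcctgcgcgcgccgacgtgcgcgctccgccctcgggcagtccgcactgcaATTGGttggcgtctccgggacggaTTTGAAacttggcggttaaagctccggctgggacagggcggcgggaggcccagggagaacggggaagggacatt
KIF11 (chr10:92593010-92593169, plus strand): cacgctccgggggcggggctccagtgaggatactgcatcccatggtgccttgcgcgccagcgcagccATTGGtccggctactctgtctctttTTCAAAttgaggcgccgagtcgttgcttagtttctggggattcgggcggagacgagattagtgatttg
KIF18B (chr17:44947734-44947893, minus strand): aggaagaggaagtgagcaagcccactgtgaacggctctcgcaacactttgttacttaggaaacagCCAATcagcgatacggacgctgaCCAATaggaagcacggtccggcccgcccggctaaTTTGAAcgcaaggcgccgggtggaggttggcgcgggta
KIF23 (chr15:69414229-69414388, plus strand): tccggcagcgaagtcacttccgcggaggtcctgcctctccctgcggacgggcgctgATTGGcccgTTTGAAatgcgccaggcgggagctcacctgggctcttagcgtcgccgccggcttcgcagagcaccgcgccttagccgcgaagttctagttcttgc
KIFC1 (chr6:33391703-33391862, plus strand): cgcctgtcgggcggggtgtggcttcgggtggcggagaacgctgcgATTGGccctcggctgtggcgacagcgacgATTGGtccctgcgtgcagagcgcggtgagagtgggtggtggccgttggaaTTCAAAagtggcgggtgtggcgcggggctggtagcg
KIF22 (chr16:29790631-29790790, plus strand): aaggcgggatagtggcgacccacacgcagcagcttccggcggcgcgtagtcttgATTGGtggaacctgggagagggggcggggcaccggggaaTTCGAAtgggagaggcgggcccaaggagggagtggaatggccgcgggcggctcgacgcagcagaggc
KIF20A (chr5:138178992-138179151, plus strand): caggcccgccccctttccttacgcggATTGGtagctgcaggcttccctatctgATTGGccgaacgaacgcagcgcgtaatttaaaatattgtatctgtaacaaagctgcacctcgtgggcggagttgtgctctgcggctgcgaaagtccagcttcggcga
KIF3A (chr5:132737507-132737666, minus strand): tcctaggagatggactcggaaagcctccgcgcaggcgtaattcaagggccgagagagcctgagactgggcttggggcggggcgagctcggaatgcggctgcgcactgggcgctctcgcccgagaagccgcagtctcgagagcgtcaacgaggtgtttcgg

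In the mitotic promoters the CHR lay close to the start, its first base between positions -55 and 30, where 0 is the first transcribed base. The CCAAT boxes of these promoters lay upstream, between -202 and -21, and none of the matches overlapped another kind. In the transport promoter of KIF5B the order was the reverse, with the CHR at -140 and the CCAAT box at -59. In KIF11, KIF4A and KIF14, the CHR followed the nearest CCAAT box after 20, 19 and 18 bases. In KIF23 only 4 bases lay between them, in KIFC1 45, and before the 2 CHR matches of KIF20B 117 and 123. KIF2C and KIF2B held none of these letters, which says only that the letters are not in this window.

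**Figure D2:**
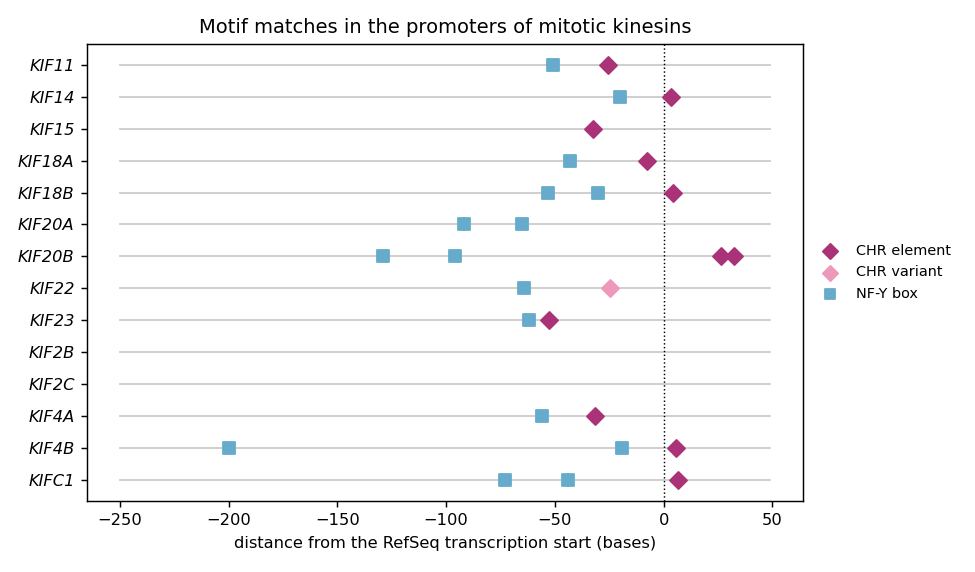
Positions of CHR elements (dark diamonds), the CHR variant (light diamond) and NF-Y (CCAAT) boxes (squares) in the 14 mitotic kinesin promoters, by distance in bases from the RefSeq transcription start. CHR elements sit between -55 and 30, in 10 of 14 promoters, downstream of the nearest NF-Y box where both occur.

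Among motors of the chromosomes, KIF4A had the smallest adjusted p of the mitotic kinesins. It encodes a chromokinesin that shapes chromosome arms and then sets the length of the midzone, and it lies on chromosome X of hg38 from 70290104 to 70420886. It stood at 151, 184 and 151 CPM without Dox and at 80.7, 75.4 and 59.9 with Dox. The highest library with Dox was thus well below the lowest without, and the log2 fold change was -1.17 (± 0.14 SE, edgeR quasi-likelihood adjusted p = 1.047e-05), or 44.3% of the level without Dox. KIF4B, an intronless copy of KIF4A, had 1 to 4 counts in each library and was not tested. KIF22, the chromokinesin Kid that pushes arms away from the poles, stood at 99.3, 101 and 83.8 CPM without Dox and at 58.5, 62.6 and 72.0 with Dox. Its groups did not overlap either, and its log2 fold change was -0.55 (± 0.14 SE, edgeR quasi-likelihood adjusted p = 0.00669).

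The motors of spindle assembly fell together. KIF11 (Eg5), which slides antiparallel microtubules to separate the poles, stood at 132, 134 and 114 CPM without Dox and at 88.3, 88.5 and 56.9 with Dox. Replicate 3 with Dox was the low library here, and the log2 fold change was -0.71 (± 0.16 SE, edgeR quasi-likelihood adjusted p = 0.00322). KIF15, which can keep a spindle bipolar when KIF11 is inhibited, had 78.9, 82.8 and 77.5 CPM without Dox and 41.5, 53.4 and 32.2 with Dox. The libraries without Dox lay close together, and the level with Dox was 52.4% of theirs, a log2 fold change of -0.93 (± 0.17 SE, edgeR quasi-likelihood adjusted p = 4.513e-04). KIFC1 (HSET), a minus-end motor that focuses poles and clusters extra centrosomes, had 98.0, 76.6 and 71.2 CPM without Dox and 34.6, 34.8 and 47.7 with Dox. Its log2 fold change was -1.05 (± 0.17 SE, edgeR quasi-likelihood adjusted p = 1.489e-04), without overlap between the groups.

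At kinetochores and microtubule ends, KIF2C (MCAK) depolymerizes microtubules to correct faulty attachments. It stood at 68.7, 75.4 and 87.3 CPM without Dox and at 53.3, 40.9 and 53.7 with Dox, a log2 fold change of -0.64 (± 0.15 SE, edgeR quasi-likelihood adjusted p = 0.00418). KIF18B, which shortens astral microtubules, had 36.1, 22.0 and 39.8 CPM without Dox and 20.2, 7.51 and 17.7 with Dox. Replicate 2 was the lowest library in both conditions, and the highest library with Dox came close to the lowest without. The log2 fold change was -1.08 (± 0.27 SE, edgeR quasi-likelihood adjusted p = 0.00659). KIF18A, which damps chromosome movements at the metaphase plate, had 42.3, 42.2 and 41.9 CPM without Dox and 32.2, 40.1 and 27.6 with Dox. Its groups did not overlap, but the log2 fold change of -0.36 (± 0.16 SE) did not pass (edgeR adjusted p = 0.120). KIF2B, the testis-rich relative of KIF2C, had no count in any library, where 3 counts would be 0.394 to 0.930 CPM.

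Of the motors of the midzone and cytokinesis, KIF20A (MKLP2), which carries the chromosomal passenger complex to the midzone, stood at 32.1, 36.6 and 48.5 CPM without Dox and at 21.8, 20.6 and 15.9 with Dox. That was 48.7% of the level without Dox, a log2 fold change of -1.04 (± 0.19 SE, edgeR quasi-likelihood adjusted p = 6.429e-04). KIF23 (MKLP1), the motor of centralspindlin, had 63.2, 75.4 and 70.7 CPM without Dox and 45.7, 51.8 and 33.5 with Dox. Its log2 fold change was -0.69 (± 0.16 SE, edgeR quasi-likelihood adjusted p = 0.00438). KIF20B, which acts late in cytokinesis, had 50.4, 44.7 and 62.3 CPM without Dox and 38.7, 45.4 and 29.0 with Dox. It was the only one of the 12 whose groups overlapped. Its log2 fold change of -0.51 (± 0.18 SE, edgeR quasi-likelihood adjusted p = 0.0451) lost its call in 9 of 14 alternative settings. Among these were library totals alone (-0.39), DESeq2 (-0.50) and each fit without Control replicate 1, Control replicate 3, OE replicate 1 or OE replicate 3 (-0.55, -0.36, -0.53 and -0.34). KIF14, which works with citron kinase in abscission, had 90.4, 93.7 and 101 CPM without Dox and 75.7, 83.8 and 69.9 with Dox, a log2 fold change of -0.32 (± 0.13 SE) that did not pass (edgeR adjusted p = 0.0788). Both KIF14 and KIF18A passed with OE replicate 2 left out (-0.39 and -0.50 on the log2 scale, edgeR adjusted p = 0.0439 and 0.0303).

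**Figure D3:**
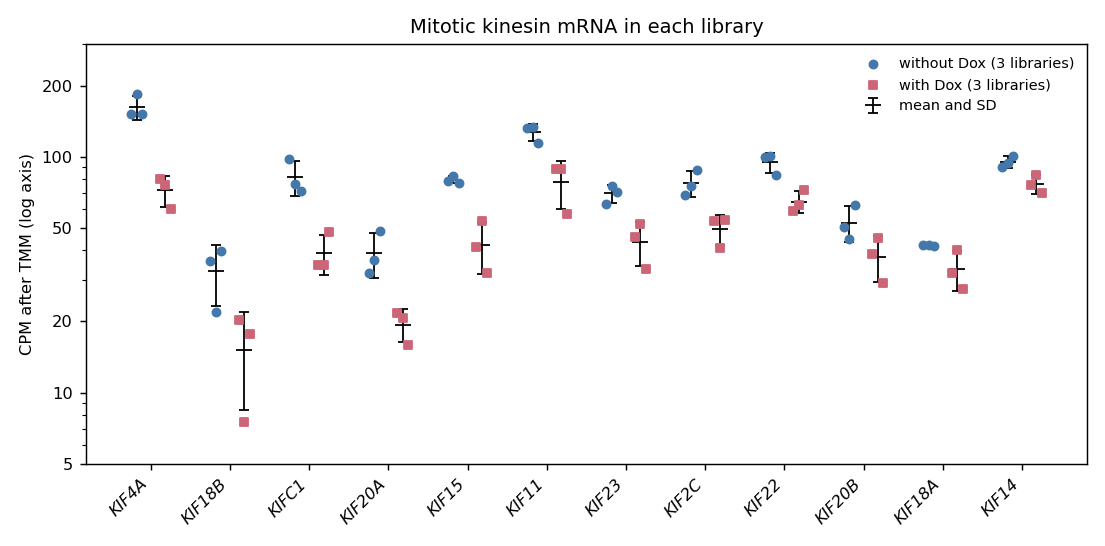
CPM after TMM normalization (log axis) of the 12 tested mitotic kinesins in each library, without Dox (circles) and with Dox (squares), with the mean and SD of 3 libraries as black marks. In 11 of the 12 genes, the exception being KIF20B, each library with Dox lies below each library without.

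Every library with Dox lay below every library without in 11 of the 12 mitotic kinesins, against 20.5% of all genes tested. Replicate 3 with Dox, the largest library, was the lowest of its condition in 8 of the 12 mitotic, 9 of the 11 transport and 5 of the 7 other motors. Without that library, 9 mitotic kinesins were still lower and their median log2 fold change was -0.675. Of the 10 called mitotic kinesins, 9 (all but KIF20B) kept their call in each of the 14 alternative settings, and the count of those lower ranged from 9 to 12.

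The transport kinesins were mixed. KIF13B, which carries membrane cargo toward the cell cortex, rose; it lies on chromosome 8 from 29067278 to 29263124. It stood at 101, 91.8 and 88.7 CPM without Dox and at 141, 157 and 129 with Dox. Its groups were well apart, with a log2 fold change of 0.60 (± 0.13 SE, edgeR quasi-likelihood adjusted p = 0.00221), and it kept its call in every alternative setting. KIF3A, a subunit of the heterotrimeric motor that builds cilia, had 93.0, 110 and 104 CPM without Dox and 134, 172 and 118 with Dox. The groups were separated by a narrow gap, and the log2 fold change of 0.46 (± 0.15 SE, edgeR quasi-likelihood adjusted p = 0.0274) lost its call when Control replicate 1, Control replicate 3, OE replicate 1 or OE replicate 2 was left out. It was 0.38, 0.47, 0.49 and 0.295 in these fits (edgeR adjusted p = 0.151, 0.0607, 0.0607 and 0.120), so in those without Control replicate 3 or OE replicate 1 the fold was no smaller. Of all genes tested, 19.0% had every library with Dox above every library without. The count of transport kinesins called was 1 to 4 over the alternatives, and 1 with OE replicate 1 left out.

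KIF1C, a motor of dense vesicles and of integrin cargo, was the transport kinesin that fell. It stood at 225, 252 and 216 CPM without Dox and at 164, 181 and 160 with Dox, a log2 fold change of -0.46 (± 0.12 SE, edgeR quasi-likelihood adjusted p = 0.0111). It lost its call under library totals alone (-0.33, edgeR adjusted p = 0.05003), with Control replicate 2 left out (-0.40, edgeR adjusted p = 0.0564) and with OE replicate 1 left out (-0.44, edgeR adjusted p = 0.0558). Its relative KIF1A, the motor of synaptic vesicle precursors, had 43.4, 60.2 and 36.0 CPM without Dox and 70.2, 68.2 and 54.6 with Dox. The groups overlapped, and the log2 fold change of 0.48 (± 0.18 SE) missed the threshold (edgeR adjusted p = 0.0555), although it passed in 7 of 14 alternative settings.

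The remaining transport motors that were tested did not pass. KIF5B, the ubiquitous heavy chain of conventional kinesin, stood at 644, 674 and 718 CPM without Dox and at 700, 753 and 588 with Dox. The libraries with Dox spanned those without, and the log2 fold change was 0.002 (± 0.13 SE). KIF16B, a motor of early endosomes, had 232, 246 and 230 CPM without Dox and 205, 244 and 147 with Dox. The libraries with Dox lay far apart, with replicate 2 highest and replicate 3 lowest. The log2 fold change was -0.25 (± 0.15 SE, edgeR quasi-likelihood adjusted p = 0.251). With OE replicate 2 left out it was -0.43 and passed (edgeR adjusted p = 0.0371). KIF1B, KIF3B and KIF13A had log2 fold changes of -0.012, 0.054 and -0.13. KIF3C and KIF5A, with fewer than 5 CPM in each library, had 0.25 and -0.32 with standard errors of 0.41 each. KIF5C, KIF17, KIFC2 and KIFC3 were measured but not tested, with at most 6, 2, 13 and 26 counts in a library.

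Of the other motors, KIF26B, an atypical kinesin tied to noncanonical Wnt signalling, had the most negative log2 fold change of the family. It stood at 15.9, 9.92 and 18.3 CPM without Dox and at 6.96, 4.45 and 5.78 with Dox, 38.7% of the level without Dox. Its log2 fold change was -1.37 (± 0.27 SE, edgeR quasi-likelihood adjusted p = 0.00130), and it kept its call in every alternative setting. KIF27, a relative of the ciliary regulator KIF7, had 4.44, 6.51 and 8.90 CPM without Dox and 13.7, 23.9 and 9.33 with Dox. OE replicate 3 barely cleared Control replicate 3, and the log2 fold change of 1.15 (± 0.33 SE, edgeR quasi-likelihood adjusted p = 0.0175) did not pass with OE replicate 2 left out (0.73, edgeR adjusted p = 0.0902) or Control replicate 1 left out (0.93, edgeR adjusted p = 0.0900). KIF21A, which restrains microtubule growth at the cell cortex, had 407, 440 and 497 CPM without Dox and 591, 646 and 552 with Dox. It rose by a log2 fold change of 0.41 (± 0.13 SE, edgeR quasi-likelihood adjusted p = 0.0248), which did not pass with replicate 1 or 2 of either condition left out (0.33 to 0.42).

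KIF2A, which depolymerizes microtubules at spindle poles and also in neurons, stood at 89.3, 98.9 and 108 CPM without Dox and at 106, 112 and 77.9 with Dox. Its groups overlapped, with a log2 fold change of -0.011 (± 0.15 SE). KIF24, which restrains cilium growth at the mother centriole, had 18.02, 14.3 and 11.5 CPM without Dox and 10.4, 11.1 and 7.22 with Dox. These did not overlap, but the log2 fold change of -0.62 (± 0.25 SE) did not pass (edgeR adjusted p = 0.0780), except with the replicate number in the fit (-0.62, edgeR adjusted p = 0.0484). KIF12, a motor of kidney and liver epithelia, had 37.7 to 51.5 CPM without Dox and 32.6 to 48.2 with Dox, and its log2 fold change of -0.13 did not pass, nor did that of KIF9, with -0.32. KIF7 and KIF25 had no count, and KIF6, KIF19 and KIF26A at most 7, 2 and 14 in a library.

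KIF21B, the relative of KIF21A, was below the filter but is given here because its groups did not overlap, a choice made after its values were seen. It had 3, 0 and 5 counts without Dox and 12, 8 and 26 with Dox. It was not tested in the main fit. Of the rows that encode no motor, KIF1BP had 119, 123 and 112 CPM without Dox and 114, 129 and 119 with Dox, with a log2 fold change of 0.034. KIF9-AS1 had 3 to 9 counts in each library and KIF25-AS1 had none.

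**Figure D4:**
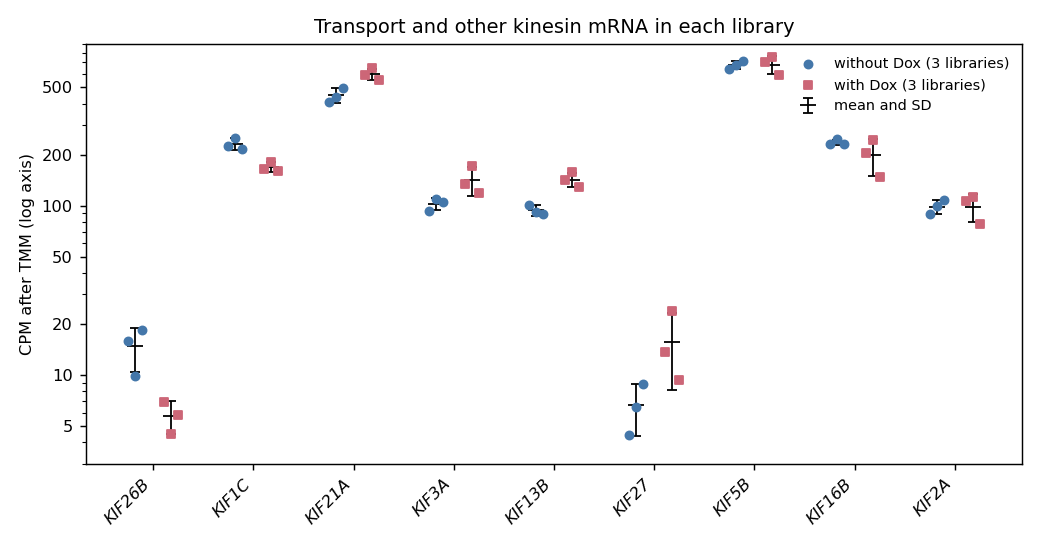
CPM after TMM normalization (log axis) in each library without Dox (circles) and with Dox (squares), mean and SD of 3 libraries in black, for the 6 called transport and other kinesins and for KIF5B, KIF16B and KIF2A, which did not pass. KIF26B and KIF1C lie lower with Dox, KIF21A, KIF3A, KIF13B and KIF27 higher, and the last 3 genes overlap between the conditions.

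Whether reads were counted by strand is not stated. In GENCODE 44, 6 of the 16 called kinesins have a gene on the opposite strand that reaches the last 1000 bases of the kinesin gene, where these 3ʹ reads fall: KIF2C, KIF20A, KIF22, KIF3A, KIF13B and KIF27. At KIF20A that gene is CDC23, which shares 74 bases and had a log2 fold change of -0.19 (edgeR adjusted p = 0.442). For these 6 the count is uncertain to that extent.

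The mRNAs of proteins that work with mitotic kinesins were also followed. Of 12 partners listed by known binding or loading, 11 were lower with Dox, against 13.7% of all genes, and RACGAP1, which pairs with KIF23, did not pass (-0.46, edgeR adjusted p = 0.0572). Their median log2 fold change was -0.84. PRC1, the midzone bundler that recruits KIF4A, stood at 433, 422 and 454 CPM without Dox and at 233, 239 and 177 with Dox, a log2 fold change of -1.02. The passenger complex that KIF20A carries had -1.37 for AURKB, -1.13 for BIRC5, -0.68 for CDCA8 and -0.48 for INCENP. PLK1, which docks on KIF20A, had -1.46. TPX2 and HMMR of spindle assembly had -0.85 and -0.83, NUSAP1 -0.64, and ECT2 and CIT of cytokinesis -0.99 and -0.72. RefSeq promoters were found for 9 of these 12, and 8 of the 9 held the CHR letters.

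CENPE, a kinetochore kinesin whose symbol lies outside the rule, had 172, 169 and 232 CPM without Dox and 121, 192 and 104 with Dox. Its groups overlapped, and the log2 fold change of -0.47 (± 0.19 SE) did not pass (edgeR adjusted p = 0.0757). STARD9, a centrosomal kinesin, was below the filter.

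Of 12 partners of transport kinesins, 4 rose, against 11.9% of all genes, and the others did not pass, with a median log2 fold change of 0.21. KLC3, a light chain of conventional kinesin, had 4, 4 and 5 counts without Dox and 46, 50 and 37 with Dox. In CPM that was 0.873 to 1.24 against 4.86 to 13.9, a fitted log2 fold change of 3.14. It passed the filter on low counts only through the libraries with Dox, where it was high, so its call is not read as support, and with at least 10 counts in every library the partners called higher were 3. The KLC3 gene overlaps ERCC2 on the opposite strand by 1684 bases at its 3ʹ end, and ERCC2 had 0.33 (edgeR adjusted p = 0.442). The JIP scaffold genes MAPK8IP1, MAPK8IP2 and MAPK8IP3, which link kinesin light chains to cargo, had log2 fold changes of 0.70, 0.47 and 0.56 (edgeR adjusted p = 0.00477, 0.0492 and 0.0382). The groups overlapped for MAPK8IP2 and MAPK8IP3 and did not for MAPK8IP1. The light chains KLC1, KLC2 and KLC4, with 0.22, 0.089 and 0.19, did not pass, and neither did KIFAP3 of the KIF3A motor, with 0.045. This count fell to 2 with DESeq2, with the authors' normalized signal and with Control replicate 2, Control replicate 3 or OE replicate 3 left out.

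Cytoplasmic dynein and dynactin, the motor system that moves the other way along microtubules, had a share called higher near that of all genes. None of their subunits was called lower, against 13.7% of all genes. Of 17 subunits, 16 were tested and 2 rose, against 11.9% of all genes, DCTN4 by 0.51 and DYNLT3 by 0.89 on the log2 scale (edgeR adjusted p = 0.00813 and 0.00913). The other 14 did not pass, among them the heavy chain DYNC1H1, with -0.10, and the median was 0.09. With Control replicate 1 or OE replicate 3 left out, 1 of them passed.

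**Figure D5:**
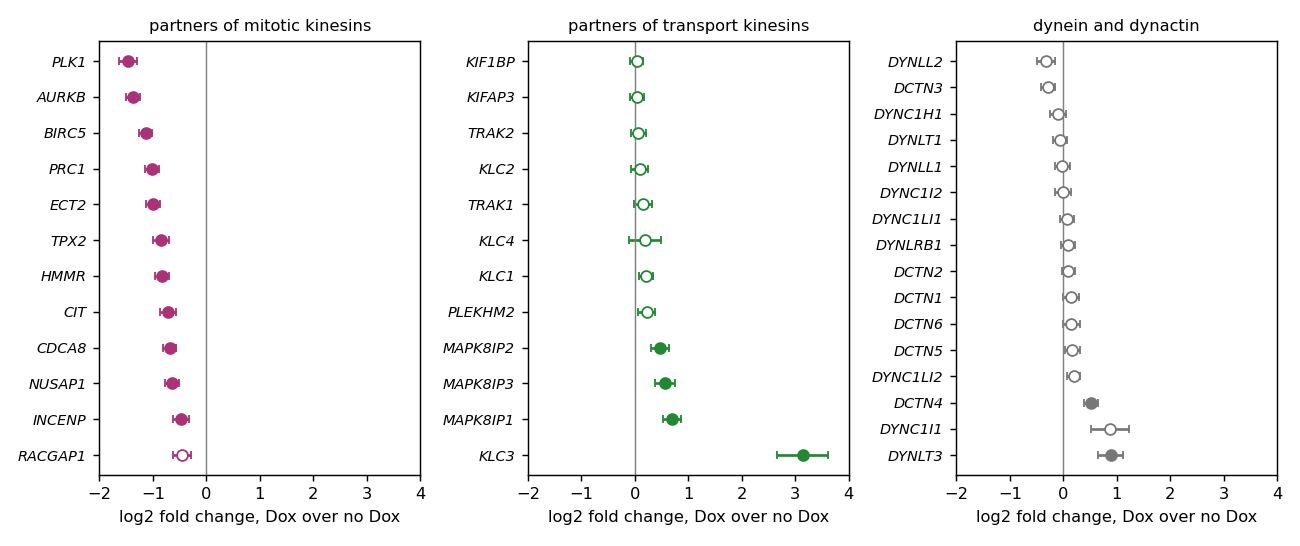
Log2 fold change with Dox over without Dox, with the standard error as bars, for tested partners of mitotic kinesins, partners of transport kinesins (KIF1BP is the row of KIFBP) and dynein and dynactin subunits; filled points have an adjusted p under 0.05. All 12 mitotic partners lie below 0, and KLC3, at 3.14, stands apart among the transport partners.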

How the data were processed

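RNA of 6 libraries was prepared as 3ʹ mRNA libraries (the labels name the FWD kit and the paper's methods the REV kit of one maker) and sequenced as single-end reads. Per the labels' processing notes, the authors used CASAVA 1.8.2, FastQC, STAR, HTSeq and edgeR with build hg38, and deposited raw counts per gene symbol. The authors also deposited, for each library, a normalized signal that is not whole; how it was made is not given in the sources used here. Rows that name no gene were left out. Reads on no gene were 32.5% to 34.6% without Dox and 35.6% to 39.5% with Dox. Ambiguous reads were 3.05% to 3.21% and 3.24% to 3.37%. The TMM factors also differed by condition, 0.953 to 0.963 without Dox and 1.035 to 1.051 with Dox.

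Counts of all genes were tested with edgeR 4.0.16 (R 4.3.3; TMM, filterByExpr, quasi-likelihood test, Benjamini-Hochberg over 12233 genes, adjusted p under 0.05), and the test was checked on simulated counts. Far fewer genes were changed in that simulation than were called here, so it does not cover the setting of these results. CPM are per TMM-scaled library. No use of molecular identifiers is stated, so the CPM limit given for KIF2B covers counting error only. Standard errors were computed as the absolute log2 fold change divided by the square root of the quasi-likelihood F statistic. These standard errors and the p-values also include the spread between libraries. DESeq2 1.42.0, and limma 3.58.1 on log2 of the deposited signal plus 1, were alternatives. The others were DESeq2 size factors, upper-quartile factors, library totals, no filter, at least 10 counts in every library, the replicate number as a block, and leaving out each library in turn.

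Each called mitotic kinesin, and the called transport and other kinesins, were named with full values, of the rest the 2 most abundant of each class. KIF1A, KIF24, KIF21B and further genes that did not pass were named after their values were seen. Members and lists were chosen with earlier results of these data known. Positions are from GENCODE 44. Promoters are from RefSeq, and proteins were not analysed here. Some luminal markers are not reported here.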

Additional observations from a re-analysis of the deposited data

How the results depend on the processing

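Over 14 alternatives, the count of mitotic kinesins lower with Dox was 9 to 12 and their median log2 fold change -0.81 to -0.58, without a reversal. The transport median was -0.052 to 0.123, with both signs, and ABHD5 stayed between 0.81 and 1.06. Kinesin motor genes called numbered 12 to 18. Partners of transport kinesins that were higher numbered 4, but 2 with DESeq2, 2 with the normalized signal of the authors, and 2 to 3 with 1 library left out. Transport kinesins called were 1 to 4 with 1 library left out, with 1 when OE replicate 1 was left out, and dynein and dynactin subunits 1 to 2; the cause was not tested, and these fits have fewer libraries. Scaling by library totals alone moved the median over all genes from 0.016 to 0.138 (log2) and that of the mitotic kinesins to -0.58, with 9 lower.

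With the replicate number as a block, 10 mitotic kinesins were lower (median -0.72), 4 transport kinesins and 18 motor genes in all were called. Deviations of same-numbered libraries correlated across genes with r of -0.01, 0.226 and 0.086, and those of libraries with different numbers with -0.169 to 0.105. With 3 libraries in each condition, these values cannot settle whether the numbers pair the libraries. Of 418 values for single motors across the alternatives, 385 kept their side of the threshold, 22 lost and 11 gained a call. No called motor changed sign, while KIF1B, KIF2A, KIF3B, KIF3C, KIF5B, KIF12 and KIF13A, none of them called, changed sign in some alternatives. The 12 motors below the filter, 3 of them without a count, were not tested in the main fit. The setting without a filter took in those with a count, and KIF21B, with few counts, was among its 18 called motors.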
